A study of Homo sapiens with 4 samples.

Results

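The SLC25 family, the mitochondrial carriers, was followed across 2 glucose concentrations in HEK293 cells, a line derived from human embryonic kidney. Members were taken by name: every probe set that the platform annotation assigns to a single gene whose symbol is SLC25A and a number. This gave 96 of the 54675 probe sets of the array, for 45 genes, and 39 of these genes were among the 12242 genes bright enough to be tested. Cells had been kept for 7 days in DMEM with 10% FCS and either 450 mg/dl glucose (high glucose, 2 arrays) or 100 mg/dl glucose (low glucose, 2 arrays), and biotin-labelled RNA was measured on single-colour Affymetrix arrays. The groups shared the cell line, the basal medium, the serum and the culture time, and no other agent or genotype is named in the labels. The labels name the arrays of a group as biological replicates and do not say whether their cultures were separate. The p-values set each difference against a spread between these arrays, which is estimated in part from the other genes tested.

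SLC25 carriers are small membrane proteins, nearly all of the inner mitochondrial membrane, built from repeats of a common transmembrane unit. They let metabolites cross a membrane that is otherwise nearly closed to them: ADP and ATP, phosphate, citrate, malate, aspartate, glutamate, ornithine, carnitine esters, nucleotides, cofactors and iron. In a glucose-fed cell they connect glycolysis in the cytosol with the citric acid cycle and ATP synthesis in the matrix.

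The values are array signals, scaled by the authors to a common trimmed mean of 200.02 on every array. A gene is represented by its brightest probe set, a difference is the mean log2 signal in high glucose minus that in low glucose with its standard error (SE), and a gene was called when its Benjamini-Hochberg adjusted p from limma, over all genes tested, was under 0.05. Replicate arrays correlated at 0.990 in high glucose and 0.989 in low glucose over the log2 signals, and arrays of different groups at 0.928 to 0.931. Of 10 genes listed as marks of HEK293 cells, 9 had a probe set and 8 passed the filter on dim signals, NEFM being below it. Of these 8, EYA1, LHX1 and PAX2 lay near the filter signal of 32.9. KRT8, KRT18, CDH2 and LHX1 were called higher in high glucose, VIM and EYA1 lower, and NEFL and PAX2 were not called. By comparison, 0 of 4 blood genes, 0 of 3 liver genes, 1 of 3 endothelial genes, 1 of 3 measured kidney tubule genes and 2 of 5 fibroblast genes passed. The summed signal of the fibroblast genes was 534 and 524 in high glucose versus 328 and 378 in low glucose, with only COL1A1 and COL3A1 past the filter, and the part of such transcripts in the differences below was not tested. Poly-A spike-in transcripts are added to RNA before labelling. Their 24 probe sets were all brighter in both high glucose samples than in both low glucose samples, with a median ratio of 3.84-fold. The 6 ribosomal RNA probe sets were brighter by a median of 3.31-fold. Hybridization controls had a median signal of 486 and 875 on high glucose replicates 1 and 2, and 869 and 891 in low glucose. Labelling and glucose cannot be told apart in these 4 arrays, and by its brightest probe set none of the 39 carriers differed upward by more than the median of the spikes, whereas 1 dimmer carrier probe set, of SLC25A37, did.

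Windows upstream of 3 of the carriers described below are shown first: SLC25A24, higher in high glucose, and SLC25A29 and SLC25A36, whose main probe sets were lower. Each runs from 250 bases before to 50 bases after a transcription start of RefSeq on GRCh38.p14, 5′ to 3′ on the strand of the gene, in lower case with a motif match in capitals. SLC25A24 has 2 windows on the minus strand, of which the one printed lies at chr1:108200294-108200593, and the other, at chr1:108192786-108193085, held none of the motifs searched. The SLC25A29 window lies at chr14:100306395-100306694 on the minus strand, and the SLC25A36 window at chr3:140941586-140941885 on the plus strand.
SLC25A24: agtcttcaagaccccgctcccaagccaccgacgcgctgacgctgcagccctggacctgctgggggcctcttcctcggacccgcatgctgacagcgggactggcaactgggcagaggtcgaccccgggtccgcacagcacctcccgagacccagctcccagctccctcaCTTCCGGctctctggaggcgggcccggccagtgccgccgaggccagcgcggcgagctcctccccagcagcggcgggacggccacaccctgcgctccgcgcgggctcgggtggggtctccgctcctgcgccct
SLC25A29: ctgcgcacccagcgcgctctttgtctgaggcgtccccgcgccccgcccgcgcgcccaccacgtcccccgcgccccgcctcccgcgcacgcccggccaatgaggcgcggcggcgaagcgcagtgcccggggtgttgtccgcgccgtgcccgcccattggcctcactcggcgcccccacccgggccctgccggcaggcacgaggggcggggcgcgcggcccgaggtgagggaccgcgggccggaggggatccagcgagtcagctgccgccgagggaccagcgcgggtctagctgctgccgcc
SLC25A36: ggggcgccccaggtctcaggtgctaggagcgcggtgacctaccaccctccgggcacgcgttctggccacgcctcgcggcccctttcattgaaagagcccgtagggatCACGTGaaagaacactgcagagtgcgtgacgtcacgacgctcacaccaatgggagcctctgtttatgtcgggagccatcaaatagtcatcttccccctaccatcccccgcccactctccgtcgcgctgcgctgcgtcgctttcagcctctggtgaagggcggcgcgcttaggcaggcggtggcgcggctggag

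The capitals in SLC25A24 mark the ETS core CCGGAAG on either strand, -82 bases from the start, and those in SLC25A36 mark the E box CACGTG, at -143. The SLC25A29 window held none of the 4 letter patterns searched on both strands. Nor did the windows of SLC25A10, SLC25A39 and SLC25A44, carriers also called higher, which are not printed. The printed windows are a choice and do not show how common a match is. A window was found for 38 of the 45 carrier genes, 48 windows in all. The E box stood in 18.8% of the carrier windows and in 7.26% of the 35116 windows of the table, and the ETS core in 22.9% and 10.3%. For the NRF1 consensus the shares were 8.33% and 5.78%, and for the C/EBP-ATF core TGATGNAA they were 2.08% and 3.62%. The carrier windows had a median GC content of 65.8%, against 58.7% over all windows, and the patterns are themselves of different base composition. The 9 genes with an E box were SLC25A13, SLC25A22, SLC25A26, SLC25A31, SLC25A33, SLC25A36, SLC25A38, SLC25A46 and SLC25A51, of which SLC25A13 and SLC25A22 were called higher and SLC25A36 and SLC25A38 lower. A match is a run of letters and not a measured binding site.

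Carriers differed between the glucose groups in both directions. Of the 39 tested carriers, 9 were higher in high glucose (23.1%) and 10 lower (25.6%), and 20 were not called. Among all 12242 genes, 57.6% were called, 24.3% higher and 33.3% lower, and the share of carriers called, 48.7%, was no larger than that of the array. Both high glucose arrays were above both low glucose arrays for 15 carriers (38.5%) and below them for 14 (35.9%), against 33.6% and 46.2% of all genes. Carrier differences ran from -0.92 to 0.96 with a median of 0.04, and the median over all genes was -0.10. In absolute size the carriers had a median difference of 0.31 and all genes 0.39.

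Most calls were small, with 12 of the 19 under 1.5-fold. Called and at 1.5-fold or more were 3 carriers higher (7.69%) and 4 lower (10.3%), against 10.8% and 19.3% of all genes by the same rule. Counted by probe set, 16 of the 71 past the filter were higher and 16 lower (22.5% each), against 23.6% and 28.3% of all 23071 probe sets tested. Centring each array on its median in place of the deposited scaling took the median difference of all genes from -0.10 to 0.07 and the carriers' split to 15 higher and 5 lower (75.0% of calls higher, against 47.4%). Over all genes the same step moved the share of higher calls from 42.1% to 58.8%. Quantile normalization gave 11 carriers higher and 8 lower, and cyclic loess 11 and 9. Over all genes 45.4% and 44.9% of the calls were higher under these 2 scalings. The carriers' median lay 0.14 above that of all genes as deposited, 0.11 above it after quantile normalization and 0.10 above it after cyclic loess. Under median centring the 9 higher calls were kept, with SLC25A11, SLC25A20, SLC25A23, SLC25A33, SLC25A46 and SLC25A51 added, whereas SLC25A3, SLC25A5, SLC25A14, SLC25A35 and SLC25A38 were no longer called lower. An array signal is a share of the labelled RNA, so that fewer cells expressing a transcript and less of it per cell cannot be told apart. With 2 arrays against 2, an exact permutation test of a single gene cannot give a two-sided p below 0.333.

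**Figure D1:**
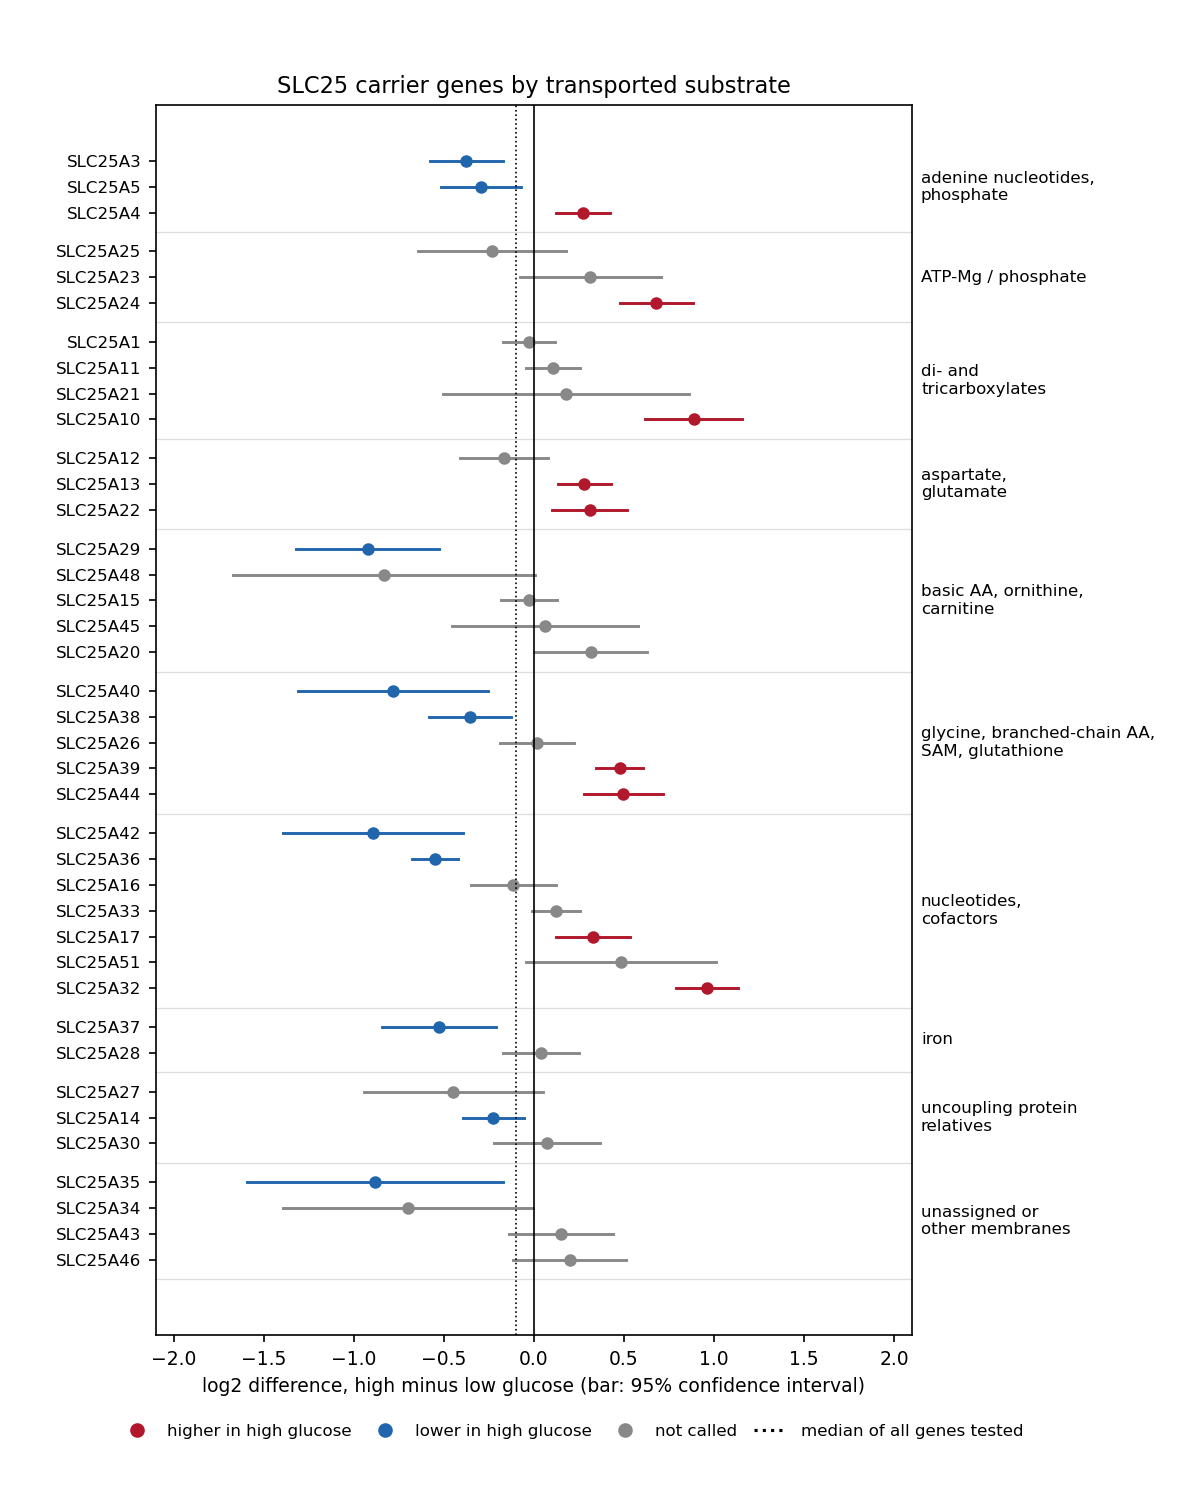
Difference in log2 signal, high minus low glucose, for the 39 tested SLC25 carriers, grouped by the role they were listed under. Points are the limma estimates, bars their 95% confidence intervals, colours the call, and the dotted line the median of all genes tested. The 9 higher and 10 lower calls are spread over all 10 groups, and 12 of these 19 lie within 1.5-fold.

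The carriers of adenine nucleotides and phosphate supply the ATP synthase, and all 3 that were tested were called, 2 lower and 1 higher. Of all genes tested 57.6% were called, and the small counts by role here and below only describe the groups. SLC25A3, the phosphate carrier, gave 5921 and 6794 in high glucose versus 8154 and 8303 in low glucose, with no overlap. This was 6358 ± 617 against 8229 ± 106 (SD, n = 2), a difference of -0.38 ± 0.09, or 1.30-fold lower (adjusted p = 0.0073), and after median centring it was -0.21 (adjusted p = 0.15). The call also ended without low glucose replicate 2 (adjusted p = 0.057). A dimmer SLC25A3 probe set ran the same way, from 233 and 216 in low glucose to 142 and 119 in high glucose (1.72-fold lower, adjusted p = 0.0027).

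SLC25A5 and SLC25A4 are ADP/ATP exchangers of closely similar sequence, the first common in proliferating cells and the second in heart and skeletal muscle. For SLC25A5 the signals were 6753 and 7955 in high glucose versus 8798 and 9166 in low glucose. The groups did not overlap, at 1.23-fold lower (log2 -0.29 ± 0.10, adjusted p = 0.032), and the difference was -0.12 after median centring and -0.02 after quantile normalization, both not called, nor was it called without high glucose replicate 1, low glucose replicate 1 or low glucose replicate 2. SLC25A4 went the other way, with 1055 and 1031 in high glucose versus 828 and 899 in low glucose. That was 1043 ± 17.1 against 864 ± 50.1 (SD, n = 2), 1.21-fold higher (log2 0.27 ± 0.06, adjusted p = 0.008). A second SLC25A4 probe set stayed below the filter, at 22.2 and 18.3 in high glucose versus 56.5 and 33.3 in low glucose, an order opposite to that of the brighter set. SLC25A31, the testis form, was below the filter, and how far these probe sets also read each other's transcripts was not tested.

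Calcium-regulated carriers exchange ATP-Mg for phosphate and so set the adenine nucleotide pool of the matrix, and 1 of the 3 tested was called. SLC25A24 gave 1409 and 1532 in high glucose versus 846 and 992 in low glucose. The arrays separated completely, at 1470 ± 87.0 against 919 ± 103 (SD, n = 2), that is 1.6-fold higher (log2 0.68 ± 0.09, adjusted p = 0.0004). The call and its direction held under all 14 alternative settings. SLC25A25 differed by -0.23 (adjusted p = 0.28) and SLC25A23 by 0.31 (adjusted p = 0.15), neither called. A dimmer SLC25A23 probe set was lower, with 122 and 125 in high glucose against 252 and 222 in low glucose (log2 -0.94 ± 0.13, adjusted p = 0.00081), so that the probe sets of SLC25A23 did not run together. SLC25A41, listed in the same group, was below the filter.

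Among the carriers of di- and tricarboxylates, 1 of 4 was called. SLC25A10, the dicarboxylate carrier, exchanges malate and succinate for phosphate. Its signals were 438 and 519 in high glucose versus 277 and 240 in low glucose. The lowest high glucose array lay well above the highest low glucose array, at 478 ± 57.0 against 258 ± 26.3 (SD, n = 2), or 1.85-fold higher (log2 0.89 ± 0.12, adjusted p = 0.00047), a call kept under all 14 settings. SLC25A1, which exports citrate for fatty acid synthesis, gave 1246 and 1274 in high glucose versus 1236 and 1338 in low glucose. Those values overlapped, with a difference of -0.03 and a 95% confidence interval of -0.17 to 0.11 (adjusted p = 0.71). SLC25A11, the oxoglutarate carrier of the malate-aspartate shuttle, differed by 0.11 in its brightest probe set (adjusted p = 0.19). A second SLC25A11 set was called, with 1265 and 1244 in high glucose against 911 and 924 in low glucose (1.37-fold higher, adjusted p = 0.00056). SLC25A21, an oxodicarboxylate carrier, differed by 0.18 and was not called.

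The aspartate and glutamate carriers gave 2 higher calls among 3 tested. SLC25A13, citrin, exports aspartate in exchange for glutamate and gave 736 and 705 in high glucose versus 596 and 591 in low glucose. Replicates lay close together, at 721 ± 22.1 against 594 ± 3.23 (SD, n = 2), a 1.21-fold difference (log2 0.28 ± 0.06, adjusted p = 0.0069), with an adjusted p of 0.051 without high glucose replicate 1. SLC25A22, which carries glutamate into the matrix, gave 324 and 331 in high glucose versus 265 and 263 in low glucose (1.24-fold higher, log2 0.31 ± 0.09, adjusted p = 0.02). Its call ended without high glucose replicate 1 (adjusted p = 0.066), high glucose replicate 2 (0.087) or low glucose replicate 2 (0.055). SLC25A12, the other aspartate-glutamate carrier of brain and muscle, differed by -0.17 (adjusted p = 0.2), while its second probe set gave 0.55, also not called. SLC25A18, a glutamate carrier, was below the filter.

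**Figure D2:**
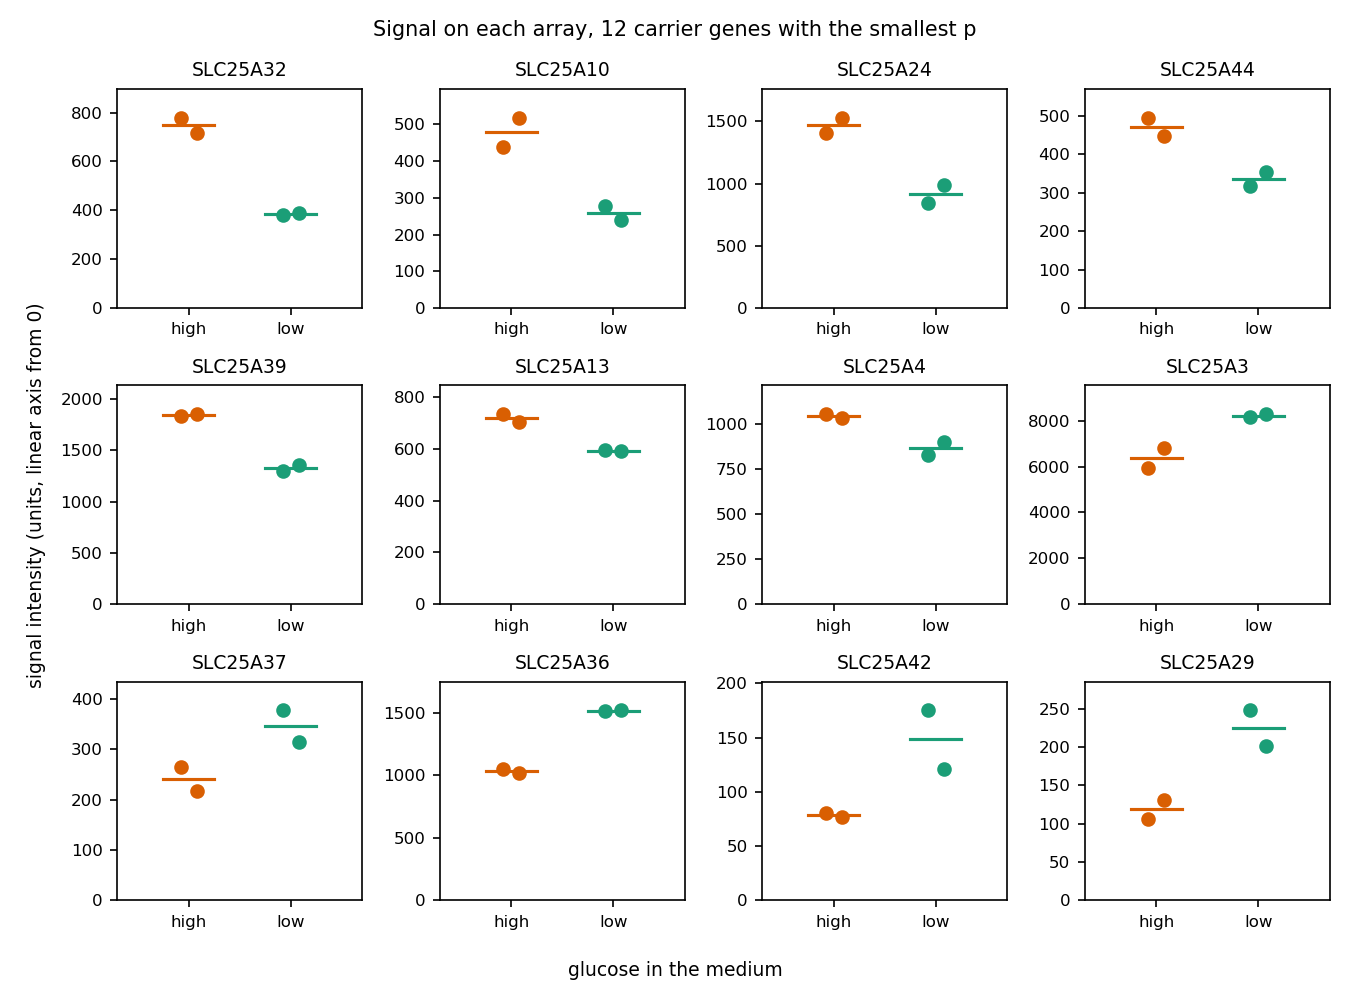
Signals of the 12 carriers with the smallest p-values on each of the 4 arrays, each panel with a linear axis from 0; each point is 1 array, coloured by group, and the line is the group mean. High and low glucose arrays do not overlap for any of the 12, and by fold SLC25A32 and SLC25A10 differ most upward, SLC25A29 and SLC25A42 downward.

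The group listed for basic amino acids, ornithine and carnitine gave 1 call among 5 tested, and not every member has a substrate stated here. SLC25A29, a carrier of basic amino acids, had the largest downward difference among the carriers. Its signals were 106 and 132 in high glucose versus 248 and 202 in low glucose, without overlap. The means were 119 ± 18.1 and 225 ± 33 (SD, n = 2), 1.90-fold lower (log2 -0.92 ± 0.17, adjusted p = 0.0026). A second SLC25A29 probe set fell further, from 189 and 222 in low glucose to 39 and 50.1 in high glucose (4.64-fold lower, log2 -2.21 ± 0.20, adjusted p = 0.00012). The lower call of SLC25A29 held under all 14 settings.

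The urea cycle's ornithine carrier SLC25A15 differed by -0.03, with a 95% confidence interval of -0.18 to 0.13 (adjusted p = 0.74). Its second probe set was called higher, with 75.4 and 106 in high glucose against 46.7 and 22.1 in low glucose (log2 1.48 ± 0.39, adjusted p = 0.016), so the 2 sets of SLC25A15 gave different answers. SLC25A20, which brings acylcarnitines into the matrix for beta-oxidation, gave 174 and 185 in high glucose versus 150 and 138 in low glucose. Those groups did not overlap, and the difference of 0.32 was not called (adjusted p = 0.079). SLC25A48 differed by -0.84 (adjusted p = 0.081), its low glucose arrays standing apart from each other at 107 and 52.3. SLC25A45 differed by 0.06, not called. SLC25A2 and SLC25A47 were below the filter.

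For glycine, branched-chain amino acids, S-adenosylmethionine and glutathione, 2 of 5 carriers were higher and 2 lower. SLC25A39, which imports glutathione into mitochondria, gave 1832 and 1858 in high glucose versus 1295 and 1357 in low glucose. The groups were far apart relative to their spread, at 1845 ± 18.5 against 1326 ± 43.4 (SD, n = 2), 1.39-fold higher (log2 0.48 ± 0.06, adjusted p = 0.00028). SLC25A40, its close relative with the same substrate, ran the opposite way, with 226 and 141 in high glucose versus 269 and 351 in low glucose. The difference was 1.72-fold lower (log2 -0.78 ± 0.23, adjusted p = 0.02) and was no longer called without high glucose replicate 2 (-0.44) or without low glucose replicate 2. A dimmer SLC25A40 probe set was also lower, from 124 and 113 to 59.4 and 60.2 (1.98-fold lower, adjusted p = 0.0035).

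SLC25A44, a carrier of branched-chain amino acids, gave 496 and 448 in high glucose versus 316 and 353 in low glucose. No high glucose array reached down to the low glucose range, and the difference was 1.41-fold (472 ± 34 against 335 ± 26, SD, n = 2; log2 0.50 ± 0.09, adjusted p = 0.003). Its second probe set was also higher, by 0.36 ± 0.10 (adjusted p = 0.019), and the call held under all 14 settings. SLC25A38, which supplies mitochondrial glycine for heme synthesis, gave 503 and 512 in high glucose versus 588 and 717 in low glucose. That was 1.28-fold lower (log2 -0.36 ± 0.10, adjusted p = 0.016), and it was -0.19 and not called after median centring (adjusted p = 0.18), nor called without high glucose replicate 1, high glucose replicate 2 or low glucose replicate 2 (-0.21). SLC25A26, which carries S-adenosylmethionine, differed by 0.02 with a 95% confidence interval of -0.19 to 0.22 (adjusted p = 0.9).

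The nucleotide and cofactor carriers split 2 higher, 2 lower and 3 not called. By brightest probe set, SLC25A32, the folate and FAD carrier, had the largest upward difference of any carrier. Some dimmer sets, of SLC25A15, SLC25A36 and SLC25A37, differed more. SLC25A32 gave 780 and 717 in high glucose versus 380 and 388 in low glucose, 748 ± 44.1 against 384 ± 6.21 (SD, n = 2). This was 1.95-fold higher (log2 0.96 ± 0.07, adjusted p = 3.7e-05), and the call held under every setting that gave a value. SLC25A17, a peroxisomal carrier of cofactors such as coenzyme A, gave 513 and 499 in high glucose against 377 and 431 in low glucose. The difference of 0.33 ± 0.09 was called (1.26-fold higher, adjusted p = 0.014) but not without high glucose replicate 1 (adjusted p = 0.072) or low glucose replicate 1 (0.061), nor with the mean over its probe sets (0.11), nor when sets with a shared suffix were left out (0.33, adjusted p = 0.33).

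SLC25A42, which carries coenzyme A, gave 80.1 and 77.0 in high glucose versus 175 and 121 in low glucose. That was 78.6 ± 2.21 against 148 ± 38.3 (SD, n = 2), 1.86-fold lower (log2 -0.89 ± 0.21, adjusted p = 0.0088), and without low glucose replicate 1 it was -0.63 (adjusted p = 0.059). SLC25A33, a pyrimidine nucleotide carrier, differed by 0.12 (adjusted p = 0.11), SLC25A51, which brings NAD into mitochondria, by 0.48 (adjusted p = 0.1), and SLC25A16 by -0.12 (adjusted p = 0.35). A second SLC25A16 probe set was called lower (log2 -0.40, adjusted p = 0.032).

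SLC25A36, the second pyrimidine nucleotide carrier, had probe sets called in opposite directions. Its brightest set gave 1052 and 1018 in high glucose versus 1512 and 1520 in low glucose. The groups were far apart, at 1035 ± 23.6 against 1516 ± 5.73 (SD, n = 2), 1.46-fold lower (log2 -0.55 ± 0.05, adjusted p = 0.00013). A second set was also lower, with 560 and 517 against 672 and 693 (1.27-fold, log2 -0.34 ± 0.07, adjusted p = 0.0056), although after median centring it was -0.17 and not called. A further set was higher, with 1425 and 1193 in high glucose versus 707 and 779 in low glucose (1.76-fold, log2 0.81 ± 0.10, adjusted p = 0.00039). The fourth was higher as well, with 134 and 119 against 68.8 and 59.5 (1.97-fold, log2 0.98 ± 0.19, adjusted p = 0.004). The fifth differed by 0.55 and was not called (adjusted p = 0.17). The mean over these probe sets was 0.29 (adjusted p = 0.014), so the direction for SLC25A36 depends on the probe set read.

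SLC25A37 and SLC25A28, the mitoferrins, carry iron into mitochondria for heme and iron-sulfur clusters. The brightest SLC25A37 probe set gave 265 and 216 in high glucose versus 378 and 315 in low glucose, 240 ± 34.1 against 346 ± 44.4 (SD, n = 2). It was called 1.44-fold lower (log2 -0.53 ± 0.14, adjusted p = 0.012), but not without high glucose replicate 2 (-0.38, adjusted p = 0.068) or low glucose replicate 1 (-0.40, adjusted p = 0.063). Another pair of SLC25A37 sets ran the other way. The first gave 422 and 403 in high glucose versus 93.2 and 111 in low glucose (4.05-fold higher, log2 2.02 ± 0.13, adjusted p = 2.6e-05). The second gave 198 and 196 against 51 and 69.1 (3.32-fold higher, log2 1.73 ± 0.19, adjusted p = 0.00032). The remaining 6 sets past the filter lay between -0.19 and 0.19 and were not called, and the mean over all of them was 0.36 (adjusted p = 0.072). SLC25A28 differed by 0.04 and was not called. Of the 19 carriers with 2 or more probe sets past the filter, only SLC25A36 and SLC25A37 had opposite calls (10.5%), and of 6255 such genes on the array 9.0% did.

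**Figure D3:**
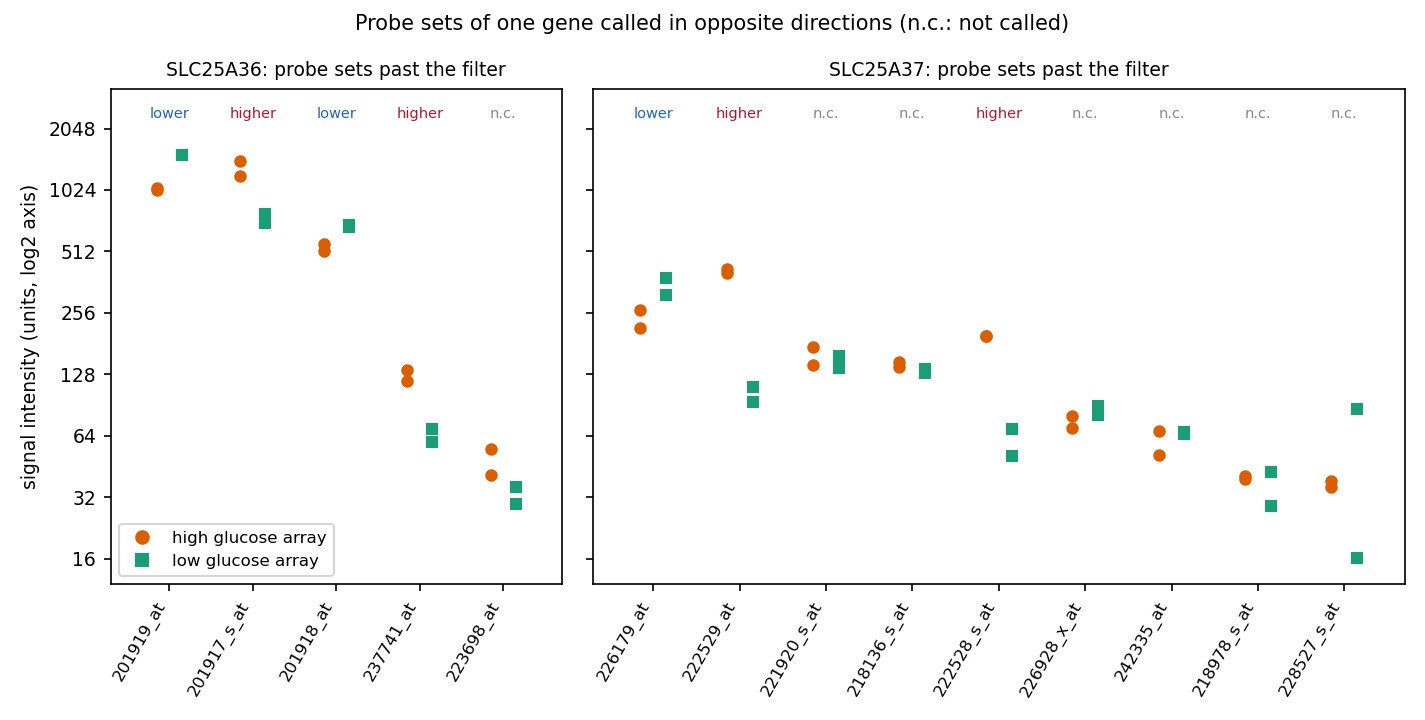
Signal on each array, on a log2 axis, for each SLC25A36 and SLC25A37 probe set past the filter, with circles for the 2 high glucose arrays, squares for the 2 low glucose arrays and the call above each set. For SLC25A36, 2 sets are called higher and 2 lower, and for SLC25A37 the brightest set is lower while 2 others are 3.32-fold and 4.05-fold higher.

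The relatives of uncoupling proteins gave 1 call among 3. SLC25A14 gave 455 and 489 in high glucose versus 546 and 558 in low glucose (1.17-fold lower, log2 -0.23 ± 0.07, adjusted p = 0.031). The groups did not overlap, but the difference was not called after median centring, nor without high glucose replicate 1, low glucose replicate 1 or low glucose replicate 2, and its mean over probe sets was -0.01. SLC25A27 differed by -0.45 (adjusted p = 0.11) and SLC25A30 by 0.07, neither called.

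Among carriers without an assigned substrate or of other membranes, 1 of 4 was called. SLC25A35 was dim, with 30.6 and 43 in high glucose against 77.6 and 57.7 in low glucose (1.84-fold lower, log2 -0.88 ± 0.30, adjusted p = 0.039). This call was lost under quantile normalization, median centring and cyclic loess, and with no filter, and without high glucose replicate 1 or low glucose replicate 1. A second SLC25A35 set, below the filter, had the opposite order, 48 and 40.1 against 29.5 and 17.4. SLC25A34 differed by -0.70 (adjusted p = 0.078), SLC25A43 by 0.15 and SLC25A46, a protein of the outer membrane, by 0.20, none of them called. SLC25A53 was below the filter, and the signals of the 6 genes below it ran from 2.61 to 34.6.

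The 20 carriers not called ranged from -0.84 to 0.48. For 6 of them both high glucose arrays were above both low glucose arrays, for 4 they were below, and for 10 the groups overlapped. Of the 19 called carriers, 6 kept call and direction under every setting that gave a value: SLC25A10, SLC25A24, SLC25A32, SLC25A39 and SLC25A44, higher, and SLC25A29, lower. SLC25A32 and SLC25A39 had only a probe set whose suffix marks it as shared among transcripts, so the setting that leaves such sets out gave no value for them. A variance model without an intensity trend ended the calls of SLC25A4, SLC25A5, SLC25A14, SLC25A17, SLC25A37, SLC25A38 and SLC25A40. SLC25A20 and SLC25A51 were called higher under quantile normalization, median centring and cyclic loess.

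**Figure D4:**
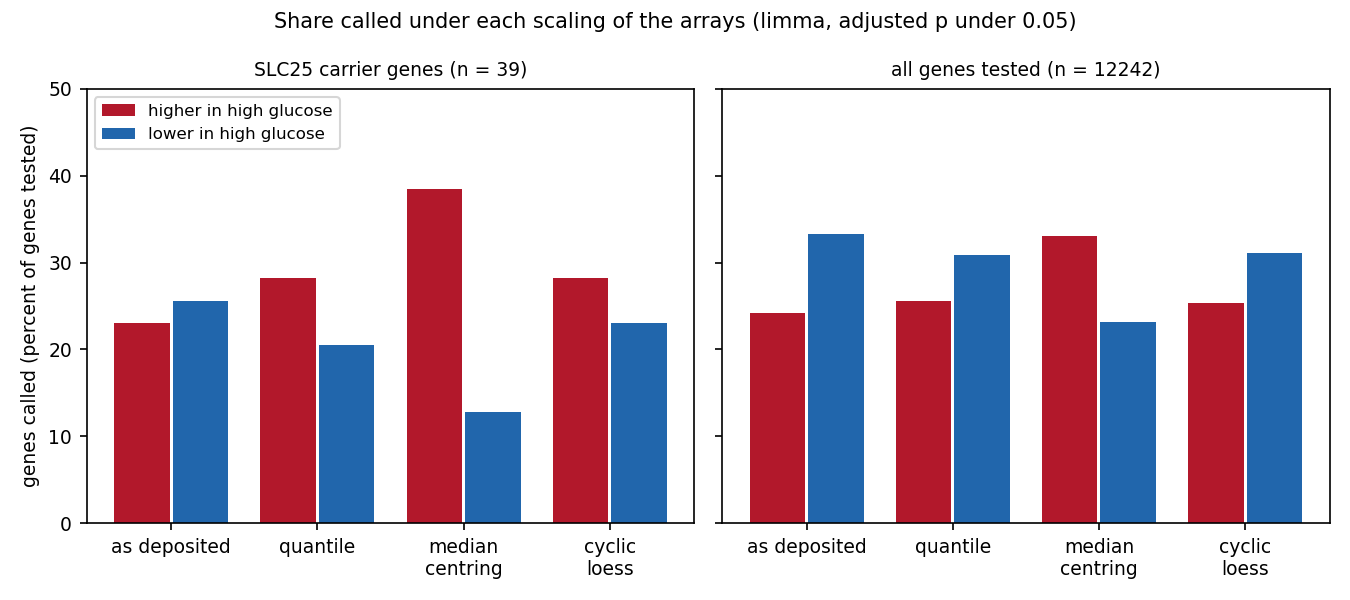
Percent of the 39 SLC25 carriers (left) and of all 12242 genes (right) called higher or lower in high glucose, under the deposited scaling, quantile normalization, median centring and cyclic loess. The carriers are at 23.1% higher and 25.6% lower as deposited, and higher calls exceed lower calls after median centring in both panels. After quantile normalization and cyclic loess higher calls exceed lower calls among the carriers only.

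Genes that work beside the carriers gave more higher than lower calls. Of 80 genes in 10 lists of neighbouring functions, 70 were tested, 38 were higher (54.3%) and 13 lower (18.6%), with a median of 0.26. Over all genes 24.3% were higher and 33.3% lower, with a median of -0.10. The lists were chosen with earlier results of these data known, so these shares only describe the lists and were not tested. After median centring 41 of the 70 were higher and 5 lower. Among proteins that carry metabolites next to the SLC25A carriers, both subunits of the mitochondrial pyruvate carrier were called higher. MPC1 was 607 ± 2.56 against 494 ± 24.6 (SD, n = 2; 1.23-fold, adjusted p = 0.0082), and MPC2 was 1250 ± 11.5 against 988 ± 33.2 (1.27-fold, adjusted p = 0.0017). The MPC2 call was lost when shared probe sets were left out (log2 0.05). Of 3 tested relatives without an SLC25A symbol, UCP2, a close homologue of the brown fat uncoupling protein, was 1.78-fold higher (3265 ± 45.1 against 1831 ± 14.9, adjusted p = 2e-05). MTCH2, an insertase of the outer membrane, was 1.47-fold higher (adjusted p = 0.00033), and MTCH1 was 1.23-fold lower (adjusted p = 0.012), a call lost after median centring (-0.13), with no intensity trend and without low glucose replicate 2 (-0.22).

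Of the outer membrane channels, through which the carriers' substrates first pass, VDAC3 was 1.75-fold higher (adjusted p = 3.6e-05) and VDAC1 1.51-fold higher, while VDAC2 differed by -0.09 and was not called. Carrier proteins are made in the cytosol and inserted by the TOM and TIM22 complexes, and 7 of 13 genes of that route were higher and 2 lower. TOMM40, the import pore, was 2.04-fold higher (2051 ± 194 against 1003 ± 61.9, SD, n = 2; adjusted p = 3.9e-05), and TOMM22, its receptor partner, 1.36-fold, with its other 2 sets not called. TIMM22, which inserts carriers into the inner membrane, was 1.70-fold higher in its brightest set, but its other 2 sets were called lower (-0.49 and -0.50), and the mean of the sets was -0.07.

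Enzymes that make or use what the carriers move were mixed. In the malate-aspartate and glycerol phosphate shuttles 2 of 6 were higher and 1 lower: MDH2 1.28-fold higher, with a second set lower (-0.50), GPD2 1.27-fold higher (adjusted p = 0.03) with a second set not called, and GOT1, the cytosolic aspartate aminotransferase, 1.33-fold lower (adjusted p = 0.00063). With the mean over its probe sets MDH2 was at -0.07 and not called, and without shared sets it was called lower (-0.50). Its higher call was also lost without low glucose replicate 1 (log2 0.31). The GPD2 call was lost with no intensity trend and without high glucose replicate 2 (log2 0.18) or low glucose replicate 2 (log2 0.30). Around citrate and malate 4 of 6 were higher and 1 lower. The cytosolic malic enzyme gene ME1 was at 1097 ± 26.9 against 482 ± 12.5 (SD, n = 2; 2.28-fold higher, adjusted p = 8e-06), and the mitochondrial malic enzyme ME2 was 1.95-fold higher (1254 ± 57.9 against 642 ± 14.2, SD, n = 2; adjusted p = 1.8e-05). IDH2, the mitochondrial NADP isocitrate dehydrogenase, was 1.71-fold lower (adjusted p = 8.6e-05), while its other set differed by 0.06. In the carnitine shuttle around SLC25A20, 2 of 4 were higher and 1 lower. CPT2, which turns acylcarnitines back into acyl-CoA in the matrix, was 2.27-fold higher (407 ± 2.90 against 180 ± 25.8, SD, n = 2; adjusted p = 0.00014). The acylcarnitine-making enzyme CPT1A was 3.03-fold higher in its brightest set (281 ± 0.980 against 96.0 ± 34.3, SD, n = 2; adjusted p = 0.00079), and its second set, at 1.4-fold, was not called (adjusted p = 0.27). CRAT, carnitine acetyltransferase, was 1.52-fold lower (adjusted p = 0.011), a call lost without high glucose replicate 2 or low glucose replicate 2.

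Of 14 ATP synthase subunits, served by SLC25A3 and the ADP/ATP exchangers, 8 were higher and 4 lower, led by ATP5PF (1.54-fold higher), ATP5MC1 (1.45-fold) and ATP5F1C (1.38-fold). The set of ATP5F1C without a shared suffix differed by -0.37 and was not called. Among users of mitochondrial iron 3 of 7 were higher and 1 lower, with a median of -0.01. NFS1, the cysteine desulfurase that gives sulfur to iron-sulfur clusters, was 3.32-fold higher (494 ± 26.4 against 151 ± 33.4, SD, n = 2; adjusted p = 7.2e-05), and its second set 1.61-fold higher. The scaffold gene ISCU was 1.45-fold higher, and ABCB10, a transporter of the inner membrane, was 1.27-fold lower, -0.17 and not called after median centring. Among other transporters of that membrane 6 of 12 were higher and 2 lower. SFXN1, a serine carrier, was 2.00-fold higher (793 ± 66.4 against 397 ± 22.5, SD, n = 2; adjusted p = 5.7e-05). Of the calcium uniporter's parts, MICU2 was 1.66-fold, MCU 1.30-fold and MCUB 1.28-fold higher, and SMDT1 was 1.42-fold lower (adjusted p = 0.00033).

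**Figure D5:**
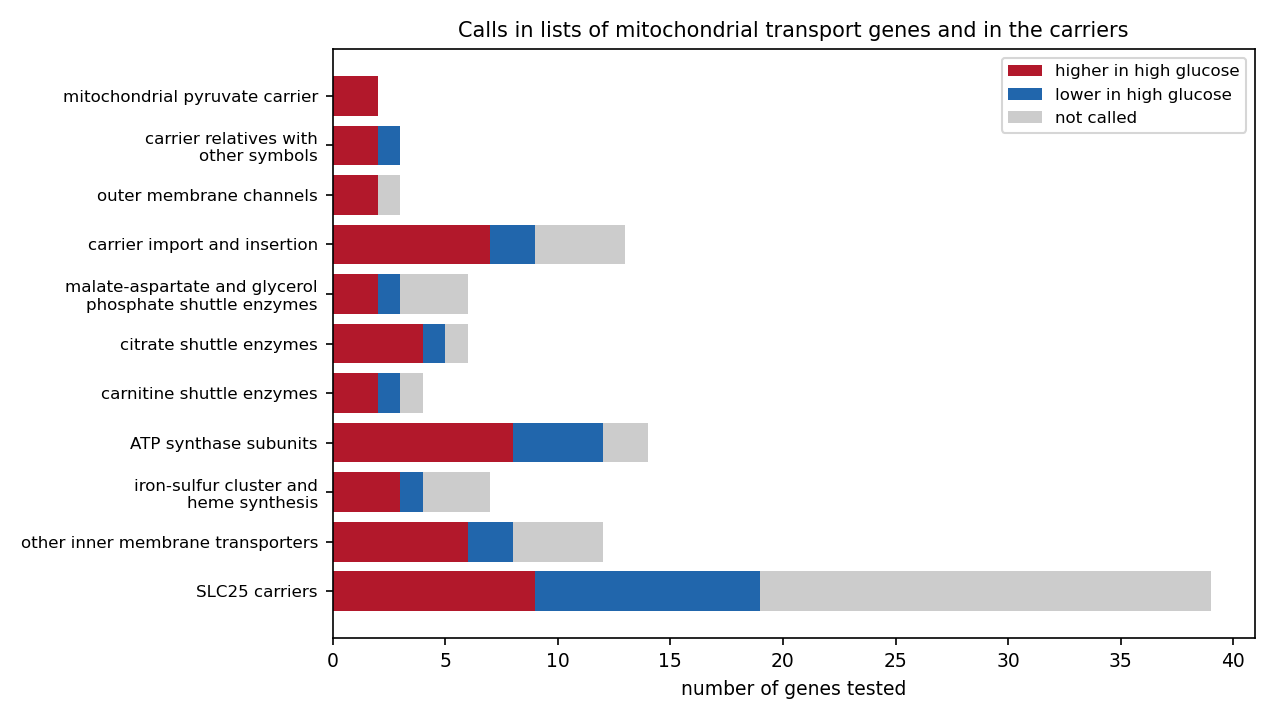
Genes called higher, lower and not called in high glucose in each of the 10 lists of neighbouring functions and in the SLC25 family; bar segments count genes tested. Higher calls outnumber lower calls over the 10 lists, 38 to 13, and among the carriers they are 9 and 10. The lists were chosen with earlier results of these data known.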

How the data were processed

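RNA from HEK293 cells was measured on 4 single-colour Affymetrix arrays, 2 per glucose concentration. The authors deposited linear signal intensities for every probe set, and per the submitters' processing notes the software was GCOS. Each array had a 2% trimmed mean of 200.02, tested on the values, which hides any shift common to most transcripts. Their background correction is not stated in the labels. The number of arrays limits the precision.

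Of 54675 probe sets, 62 were controls and left out, and the platform annotation gave 1 gene for 41097, several for 1801 and none for 11777. Of those with 1 gene, 41043 matched the RefSeq gene table of GRCh38.p14. Signals were log2-transformed with no pseudocount and no further normalization. Probe sets with a mean log2 signal at or above the median (a signal of 32.9) were kept, and each gene was represented by its brightest probe set. High was set against low glucose in limma 3.58.1 under R 4.3.3 (lmFit, then eBayes with its intensity trend) on all 4 arrays and without covariates. Two-sided p-values were adjusted by Benjamini-Hochberg over all genes, or over all probe sets for probe set values, with a threshold of 0.05. The procedure was tested on simulated data with far fewer changed genes than were called here, so that test does not cover calls at this share. Fold changes are log2 differences turned back to the linear scale, so they can differ from the ratio of the group means printed beside them.

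The carriers, the role groups and the 10 lists of neighbouring functions were chosen with earlier results of these data known. Every carrier with a single-gene probe set is named. Full statistics are given for the 12 with the smallest p and for those with probe sets called in opposite directions. Of each list, up to 3 genes with the smallest p are named, and MCU and MCUB in addition. Alternatives were 3 other scalings, 2 other filters, a pseudocount of 16, no intensity trend, 2 other ways of taking a gene's probe sets, the replicate number as a block, and each array left out. Replicate numbers 1 and 2 occur in both groups, without a label that ties equal numbers to a batch or day.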

Additional observations from a re-analysis of the deposited data

How the results depend on the processing

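Median centring gave 15 SLC25 carriers called higher and 5 lower, a median difference of 0.21, 26 probe sets called higher and 9 lower, and 5 neighbouring genes called lower. With no intensity trend 6 carriers were lower, and the mean over probe sets gave a median of 0.091. Leaving out the probe sets with a shared suffix gave 10 carrier probe sets higher and 8 neighbouring genes lower. Without 1 array at a time, 5 to 7 carriers and 8 to 12 neighbouring genes were called lower, and the carriers' median ran from -0.013 to 0.049. Of these arrays, low glucose replicate 1 left 5 lower carriers and low glucose replicate 2 left 8 lower neighbouring genes. A left-out array leaves a lone array, assumed to vary like the other group. Turned signs came under median centring for SLC25A1 (0.14), SLC25A12 (0.0024), SLC25A15 (0.14) and SLC25A16 (0.054), and with the mean over probe sets for SLC25A12 (0.19), SLC25A15 (0.72), SLC25A23 (-0.31), SLC25A36 (0.29) and SLC25A37 (0.36). Without shared sets SLC25A12 was at 0.55. Over the arrays left out, uncalled carriers ran across 0: SLC25A1 from -0.086 to 0.028, SLC25A15 from -0.061 to 0.0059, SLC25A21 from -0.17 to 0.52, SLC25A26 from -0.023 to 0.053, SLC25A28 from -0.062 to 0.14, SLC25A30 from -0.054 to 0.20 and SLC25A46 from -0.00095 to 0.40. The causes were not tested.

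Same-numbered arrays did not deviate together over all genes (correlation -0.0039). This cannot show whether the numbers pair the samples for part of the genes, which was not tested. With the replicate number as a block, 10 carriers were higher and 9 lower, SLC25A35 being lost and SLC25A46 added, and 6983 genes were called in place of 7049.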
